A study of Mus musculus with 6 samples.

Results

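Interferon regulatory factors are transcription factors that share a DNA-binding domain and recognise GAAA repeats in the promoters of immune genes. The rows of both deposited count tables that carry the symbols Irf1, Irf2, Irf3, Irf4, Irf5, Irf7, Irf8 and Irf9 were taken, which gave 8 of the 26286 genes listed. The cells were CD4+ CD25high regulatory T cells (Treg) from pooled spleens and lymph nodes of C57BL/6 mice that carried the Blimp1/GFP reporter. Cells positive for green fluorescent protein (GFP+) were compared with GFP- cells. The reporter marks activity of Prdm1, the gene of the transcriptional repressor Blimp-1. All sample titles begin with BlimpHet, so both populations carried the same reporter genotype, and the labels give no age and no number of animals in a pool. Each population had 1 library made by poly(A) selection (GFP- replicate 20, GFP+ replicate 19) and 2 made with an amplification protocol devised for single cells and applied here to sorted population RNA (replicates 2 and 5 of GFP-, replicates 1 and 4 of GFP+). The design calls the 3 samples of a population biologically independent without naming cultures or animals, so the p-values rest on how far these samples vary among themselves, which may be technical. The title of the series names IRF4, its partner BATF and interleukin-33 in Treg of adipose tissue, whereas these libraries come from lymphoid organs.

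IRF4 is induced by T cell receptor signalling and, with BATF and JUN proteins, binds composite sites in genes of effector T cells, including Prdm1 in effector Treg. IRF8 is its closest relative and acts with the ETS factor PU.1 in myeloid cells and B cells. IRF3, IRF5 and IRF7 are activated downstream of sensors of microbial nucleic acids and of Toll-like receptors. IRF9 is the DNA-binding subunit of the complex that type I interferon activates, and IRF1 and IRF2 are an activator and a repressor that compete for the same DNA elements.

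All 8 genes had a promoter window in the RefSeq annotation of build GRCm38.p6, 11 windows in all, each running from 250 bases before to 50 bases after a transcription start. The stretches below show what distinguishes these promoters in letters. They are the last 120 bases before the start for the 2 genes that were higher in the GFP+ libraries, and the sites named for interferon signalling in Irf1, Irf8 and Irf2. All are on the plus strand and written 5′ to 3′, and the capitals mark every match to a searched motif. These are the TATA box in Irf4 and the gamma-activated sequence in Irf1 and Irf8. In Irf2 the first run in capitals holds a composite ETS and IRF element overlapping the interferon-stimulated response element (ISRE) core, and the second is a gamma-activated sequence. No searched motif matched in the Irf5 stretch.
Irf4, chr13:30749113-30749232: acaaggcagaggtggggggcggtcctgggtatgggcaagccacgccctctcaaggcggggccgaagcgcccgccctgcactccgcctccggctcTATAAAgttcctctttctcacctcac
Irf5, chr6:29526505-29526624: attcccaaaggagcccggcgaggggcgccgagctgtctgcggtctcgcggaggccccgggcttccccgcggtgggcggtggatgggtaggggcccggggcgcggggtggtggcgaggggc
Irf1, chr11:53769904-53769952: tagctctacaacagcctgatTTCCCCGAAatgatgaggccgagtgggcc
Irf8, chr8:120736167-120736215: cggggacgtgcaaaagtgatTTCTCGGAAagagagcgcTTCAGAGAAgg
Irf2, chr8:46739495-46739533: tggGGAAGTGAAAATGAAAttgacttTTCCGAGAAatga

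Both strands of the whole windows were searched for 6 motifs. The ISRE core, GAAA and GAAA separated by any 2 bases, which IRF proteins bind, matched in Irf2 and in 3.44% of all 32851 promoter windows of that length. The gamma-activated sequence TTCNNNGAA, an element named for its response to interferon gamma, matched in Irf1, Irf2 and Irf8 and in 8.30% of all windows. TATAAA, the TATA box, matched in Irf4, Irf7 and Irf8 and in 13.6% of all windows. The ETS and IRF composite, GGAA and GAAA separated by any 2 bases, matched in Irf2 (2.72% of all windows) and can overlap the ISRE core. The NF-kB motif matched in Irf1 and Irf2 (8.46% of all windows), and the AP-1 motif TGANTCA in none of the 11 (7.81% of all windows). The GC content of the printed stretch was 65.8% in Irf4 and 78.3% in Irf5. A match is a description of the letters and not evidence of a bound site.

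Libraries held between 15224051 and 28354321 counts. Prdm1, the gene reported by GFP, was at 2.46 to 9.13 CPM (counts scaled to the size of the library) in the GFP- libraries and at 29.5 to 152 in the GFP+ libraries. Of the 1810 genes on chromosomes 3, 8 and 9 with at least 100 counts in the poly(A) libraries, 1809 had no count in any of the 4 single-cell protocol libraries, against 20 of 9968 on other chromosomes. Irf2 and Irf8 lie on chromosome 8 and are among them, so both are described in the poly(A) pair alone. The other 6 genes were tested in all 6 libraries with edgeR's quasi-likelihood test, with the protocol as a covariate and Benjamini-Hochberg adjustment over the 10523 genes tested. Single-gene CPM are scaled by TMM unless stated otherwise. Where 3 values of a population follow each other, they stand in the order GFP- replicate 20, 2 and 5, or GFP+ replicate 19, 1 and 4, so that the poly(A) library comes first.

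Treg markers were present in every library: 5 of the 7 listed could be summed, and together they made 3967, 1962 and 1519 CPM of all counts in GFP- replicates 20, 2 and 5 and 4383, 2744 and 2284 in GFP+ replicates 19, 1 and 4. Foxp3, which defines Treg, ranged from 1147 to 2137 CPM of all counts and did not pass the test, whereas Ctla4, an inhibitory receptor, rose. Il2ra, the gene of CD25, was lower in GFP+ within each protocol without passing the test. Its log2 fold change was -0.64 (edgeR adjusted p = 0.111), and the other 4 tested Treg markers had one above 0. The summed macrophage markers were at 22.0, 19.5 and 15.2 CPM of all counts in the GFP- libraries, against 1329, 975 and 1394 across the GFP+ libraries. All 11 tested markers of the 13 listed were higher in GFP+, with a median log2 fold change of 6.18, and among them Csf1r, a receptor of macrophage growth factors, reached 411, 232 and 231 CPM of all counts in GFP+ replicates 19, 1 and 4. No GFP- library had more than 4.82 CPM of all counts of Csf1r, and Cd14 alone of the tested markers was at 0 in a library (GFP- replicate 5). IRF5 and IRF8 are also expressed in myeloid cells and IRF4 in dendritic cells, B cells and plasma cells, so these values stand beside every result below, and their part in the results was not tested. In sorted bulk RNA, fewer cells of a type and less RNA per cell cannot be told apart.

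Of the 6 genes tested, Irf4 and Irf5 were higher in the GFP+ libraries and none was lower by the edgeR test. Over all tested genes 9.81% were called higher, 3.68% lower and 13.5% in either direction. The median log2 fold change of the 6 was -0.29, beside -0.08 over all tested genes. In TMM-scaled CPM, the GFP+ and GFP- values of 5 of the 6, all but Irf3, did not overlap within either protocol. They differed in the same direction in both protocols, and both conditions held for 40.6% of all tested genes on that scale. Of these 5, Irf1, Irf7 and Irf9 had their lower values in GFP+ and did not pass the test. In CPM of all counts the single-cell protocol values of Irf1, Irf7 and Irf9 overlapped between populations. Irf4 and Irf5 stayed apart within each protocol on that scale too.

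**Figure D1:**
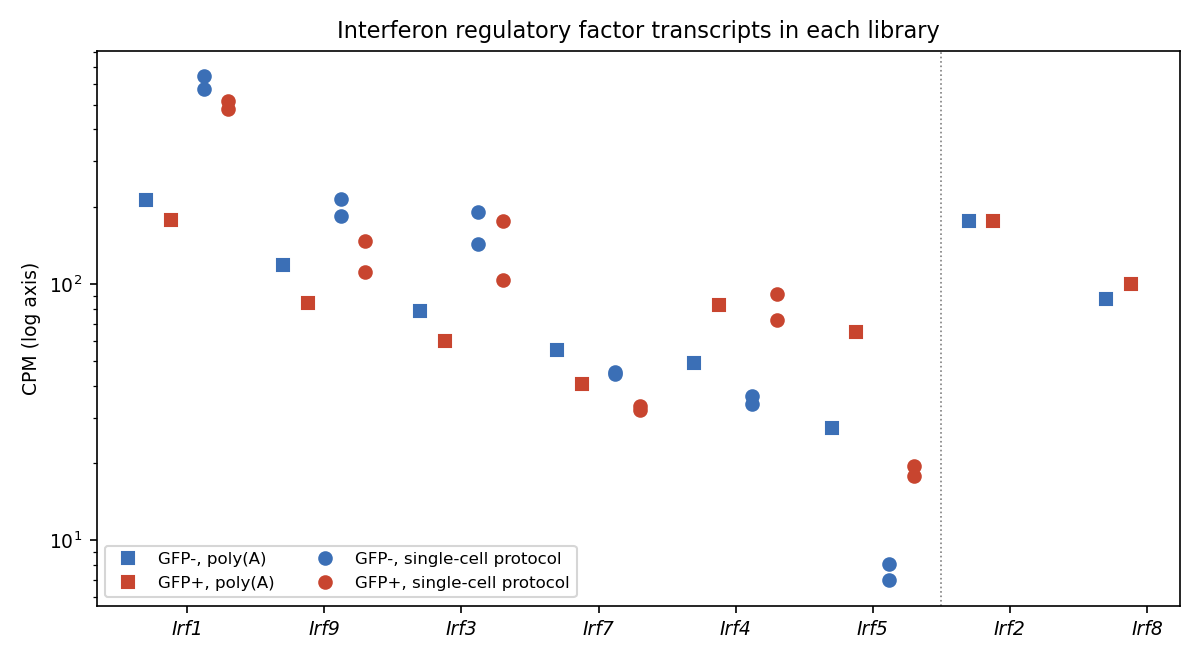
CPM (log axis) of the 8 interferon regulatory factors in each library, with squares for poly(A) and circles for single-cell protocol libraries, blue for GFP- and red for GFP+. Irf4 and Irf5 are higher in GFP+ in both protocols. Irf2 and Irf8, right of the dotted line, are scaled to all counts and have poly(A) points only, since their single-cell protocol counts are 0.

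Irf4, Entrez gene 16364 on chromosome 13, was measured at 49.3, 36.4 and 33.9 CPM in the GFP- libraries, against 82.9, 91.0 and 72.2 CPM across the GFP+ libraries. On this TMM scale every GFP+ library was above every GFP- library, across both protocols. In CPM of all counts that held only within each protocol, since GFP- replicate 20 (83.4) lay above GFP+ replicates 1 and 4 (63.4 and 56.6). The counts of Irf4 ran from 268 in GFP- replicate 5 to 4076 in GFP+ replicate 19. Irf4 was 2.08-fold higher in GFP+, a log2 fold change of 1.06 ± 0.23 (SE, n = 3 per population; edgeR adjusted p = 0.0150). The log2 ratio was 0.75 in the poly(A) pair and 1.21 between the means of the single-cell protocol libraries, and the difference between protocols, 0.46 ± 0.65, did not pass the test. In the 4 single-cell protocol libraries alone the log2 fold change was 1.20 with an edgeR adjusted p of 0.0905. The call was also lost without GFP+ replicate 1 (0.92, edgeR adjusted p = 0.0682). Without GFP- replicate 20 (1.21, 0.0888) or GFP+ replicate 19 (1.21, 0.0827) it was lost too. With the protocol as a covariate, a poly(A) library left alone adds nothing to the comparison. These fits without a poly(A) library therefore rest on the same 4 single-cell protocol libraries and are no separate losses.

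Irf8, Entrez gene 15900 on chromosome 8, is the relative of Irf4 with the gamma-activated sequences printed above. It had 2377 counts in the GFP- and 2833 in the GFP+ poly(A) library, or 87.3 and 99.9 CPM of all counts. The log2 ratio was 0.19, with a 95% counting interval (Clopper-Pearson) of 0.12 to 0.27 that holds no spread between samples. By the same measure Irf4 gave 0.79 in this pair. With 1 library a population no test was possible, and of 14622 genes with at least 20 counts in the pair, 61.5% had a log2 ratio beyond 0.25 in either direction. In CPM of all counts Irf8 lay inside that bound, as did Irf1 and Irf2, and the other 5 genes lay beyond it. The place of Irf1 depends on the scaling, with -0.22 in CPM of all counts and -0.26 in TMM-scaled CPM.

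Irf5, Entrez gene 27056 on chromosome 6, encodes the factor that acts downstream of Toll-like receptors in myeloid and B cells. It was measured at 27.3, 8.04 and 6.96 CPM in the GFP- libraries, against 64.6, 17.8 and 19.5 CPM across the GFP+ libraries. GFP+ was higher within each protocol, while the poly(A) GFP- library was above both single-cell protocol GFP+ libraries. Irf5 was 2.44-fold higher in GFP+, a log2 fold change of 1.29 ± 0.21 (SE, n = 3 per population; edgeR adjusted p = 0.00396). The log2 ratio was nearly the same by protocol, 1.24 in the poly(A) pair and 1.32 in the other libraries. The single-cell protocol counts were low, from 55 in GFP- replicate 5 to 269 in GFP+ replicate 4, and in those libraries alone the edgeR adjusted p was 0.0643. Without GFP- replicate 20 or GFP+ replicate 19 the call was lost (edgeR adjusted p = 0.0580 and 0.0629). Those fits rest on the same single-cell protocol libraries, so they are no separate losses. In the GRCm38 annotation Irf5 overlaps Tnpo3, a nuclear import receptor, and the strand setting of the counting is not stated. Tnpo3 had a log2 fold change of -0.14 ± 0.30 (edgeR adjusted p = 0.809).

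**Figure D2:**
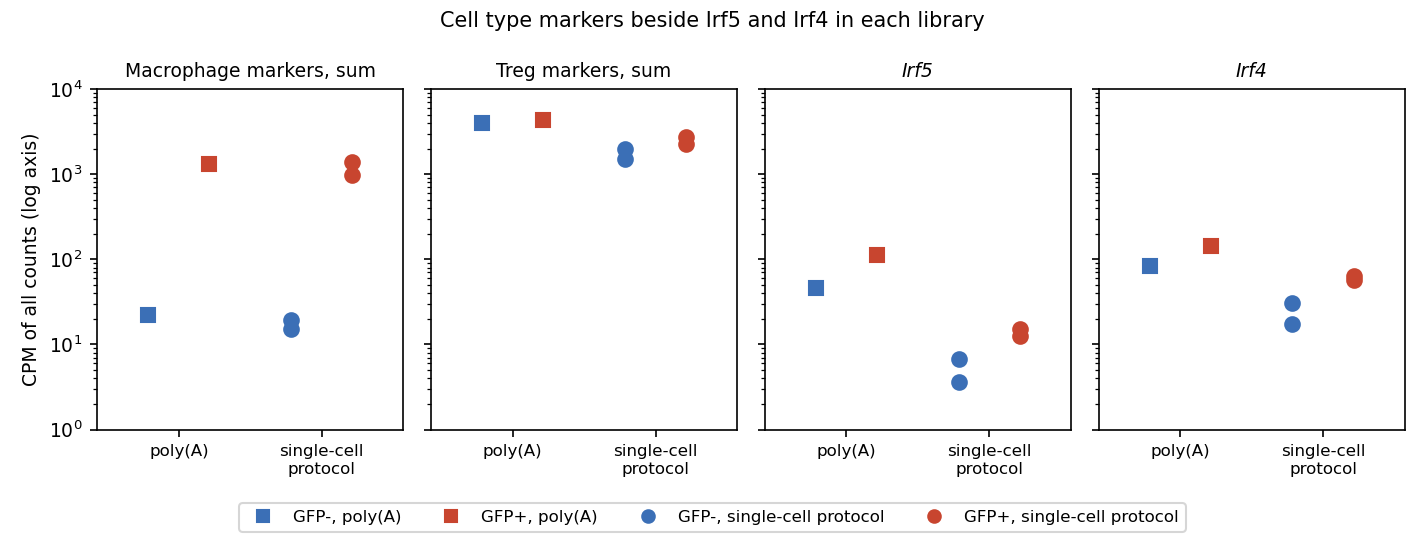
CPM of all counts (log axis, same scale in each panel) of the summed macrophage markers, the summed Treg markers, Irf5 and Irf4 in each library, with squares for poly(A), circles for the single-cell protocol, blue for GFP- and red for GFP+. Macrophage markers lie between 975 and 1394 in GFP+ libraries and at 22.0 or below in GFP- libraries. Irf5 and Irf4 are present in the GFP- libraries too.

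Irf5 and Irf4 were detected in GFP- libraries, where the summed macrophage markers did not exceed 22.0 CPM of all counts. On that scale GFP- replicates 20, 2 and 5 held 46.1, 6.80 and 3.61 CPM of Irf5 and 83.4, 30.8 and 17.6 CPM of Irf4. Across GFP+ replicates 19, 1 and 4 Irf5 was at 112, 12.4 and 15.3 CPM and Irf4 at 144, 63.4 and 56.6 CPM. Markers of other cell types were summed in the same way. Summed B cell markers went from 93.0, 118 and 92.1 to 138, 156 and 242 CPM of all counts, with 1 of 6 tested, Blk, higher. Of 5 tested plasma cell markers 1, Sdc1, passed the test. The plasma cell markers summed to 129, 135 and 96.6 CPM of all counts in GFP- and to 182, 134 and 322 in GFP+. Most of each sum was Xbp1, at 117, 131 and 85.4 in GFP- and 129, 124 and 204 in GFP+, which did not pass the test. All 5 tested plasma cell markers had a log2 fold change above 0, with a median of 1.23. Igj, the immunoglobulin J chain, reached 107 CPM of all counts in GFP+ replicate 4 without passing the test. Markers of plasmacytoid dendritic cells summed to 242, 18.6 and 11.8 CPM of all counts in GFP- and to 199, 22.5 and 30.0 in GFP+. Of the 4 tested, Runx2 was higher and Pacsin1 lower, and Siglech stayed at or below 1.41 CPM of all counts. Pacsin1 made up 194 of the sum in GFP- replicate 20 and 102 of that in GFP+ replicate 19. The conventional dendritic cell markers with counts in both protocols summed to 8.96, 2.94 and 1.64 CPM of all counts in GFP- and to 187, 55.1 and 57.9 in GFP+. Sirpa and Itgax, shared with macrophages, rose, and Batf3 did not pass the test. In the poly(A) pair, Zbtb46 was at 2.72 CPM of all counts in GFP- and 4.87 in GFP+, Xcr1 at 0.551 and 2.40, and Clec9a at 0 and 0.0353. Xcr1 lies on chromosome 9, so its absence from the other libraries says nothing about the cells. The erythroid markers summed to 31.8, 66.2 and 173 CPM of all counts in the GFP- libraries, against 88.9, 359 and 743 across the GFP+ libraries. The part of these cells in the Irf4 and Irf5 results was not tested.

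Irf7, Entrez gene 54123 on chromosome 7, encodes the factor that amplifies type I interferon production. It was measured at 55.0, 45.4 and 44.6 CPM in the GFP- libraries, against 40.5, 33.5 and 32.3 CPM across the GFP+ libraries. On this TMM scale all GFP+ values were below all GFP- values, across both protocols. In CPM of all counts GFP- replicates 2 and 5 (38.4 and 23.1) overlapped with GFP+ replicates 1 and 4 (23.3 and 25.3). The log2 fold change of -0.45 ± 0.20 had an unadjusted p of 0.0488 and an edgeR adjusted p of 0.183, so Irf7 did not pass the test. The log2 ratio was -0.44 in the poly(A) pair and -0.45 in the other libraries.

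Irf9, Entrez gene 16391 on chromosome 14, encodes the factor that takes the type I interferon signal to ISRE elements. It was measured at 119, 184 and 215 CPM in the GFP- libraries, against 83.9, 111 and 147 CPM across the GFP+ libraries. On this scale GFP+ was lower within each protocol, with overlap only across protocols. In CPM of all counts GFP- replicates 2 and 5 (155 and 111) overlapped with GFP+ replicates 1 and 4 (77.3 and 115). The log2 fold change was -0.59 ± 0.24, with an unadjusted p of 0.0359 and an edgeR adjusted p of 0.151, which did not pass the test.

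Irf3, Entrez gene 54131 on chromosome 7, encodes the constitutively expressed factor that the kinase TBK1 activates. It was measured at 78.5, 191 and 142 CPM in the GFP- libraries, against 60.0, 177 and 103 CPM across the GFP+ libraries. The single-cell protocol libraries overlapped between populations. The log2 fold change was -0.30 ± 0.28 (edgeR adjusted p = 0.539).

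Irf1, Entrez gene 16362 on chromosome 11, encodes the activator that interferon gamma induces. It was measured at 212, 647 and 577 CPM in the GFP- libraries, against 177, 517 and 479 CPM across the GFP+ libraries. On this scale GFP+ was lower within each protocol by less than the test could call. The log2 fold change was -0.28 ± 0.24 (edgeR adjusted p = 0.510). In CPM of all counts Irf1 overlapped, at 547 and 300 in GFP- replicates 2 and 5 and 360 and 375 in GFP+ replicates 1 and 4. Irf2, Entrez gene 16363 on chromosome 8, encodes its repressive counterpart and holds the ISRE core printed above. The poly(A) pair gave 4774 counts in GFP- and 4983 in GFP+, or 175 and 176 CPM of all counts. The log2 ratio was 0.00, with a 95% counting interval of -0.05 to 0.06.

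**Figure D3:**
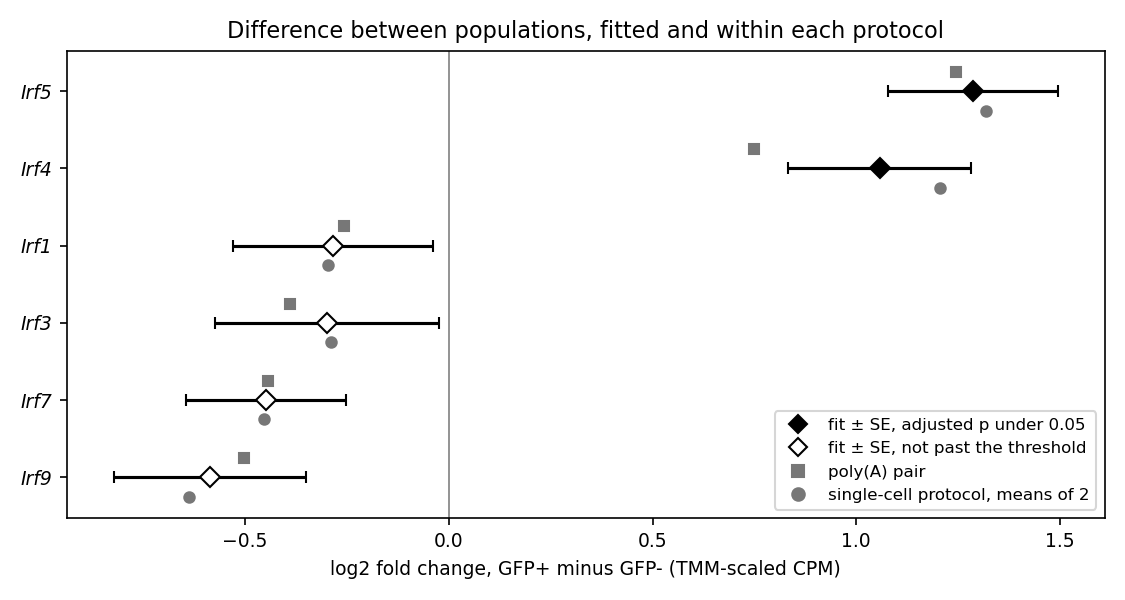
Log2 fold change of GFP+ minus GFP- for the 6 interferon regulatory factors tested. Diamonds are the fit with its SE (filled where the adjusted p is under 0.05), grey squares the poly(A) pair and grey circles the means of the single-cell protocol libraries. Irf5 (1.29) and Irf4 (1.06) lie right of 0, and the other 4 lie left of 0 without passing the test.

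Whether a difference depended on the protocol was tested with an interaction term. No gene passed, 0% of those tested, in edgeR or limma-voom. Of the 10523 genes, 24 and 25 had an unadjusted p under 0.05, well below the share of 0.05 expected where no gene differs. The interaction test, with 2 residual degrees of freedom, could therefore hardly call any gene, and it does not show that the protocols agree. The edgeR adjusted p was 1.00 for all 6 interferon regulatory factors.

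Levels of different genes were compared per length, as RPKM, which divide a count by the gene's length and the library's total, from the counts and the lengths in the same table. Irf1 was the highest in every library, at 107, 182 and 99.9 RPKM in the GFP- libraries, against 91.5, 120 and 125 RPKM across the GFP+ libraries. The length used for Irf1 was 3360 bases with poly(A) and 3000 with the single-cell protocol, so these values cannot be compared across protocols. In the poly(A) GFP- library it was followed by Irf9 (74.8 RPKM), Irf2 (70.6), Irf3 (65.7), Irf7 (50.8), Irf8 (30.9), Irf5 (22.2) and Irf4 (17.8). In the poly(A) GFP+ library Irf4 was again the lowest of the 8, at 30.7 RPKM. Irf5 stood in place 7 of 8 in the first order and, at 53.8 RPKM, in place 4 of 8 in the second. With 1 library each, the spread between neighbours in these orders is unknown.

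In the single-cell protocol libraries Irf3 and Irf9 followed Irf1, and their RPKM ranges overlapped in both populations. Irf7 was at 21.0 and 12.6 RPKM and Irf4 at 10.3 and 5.87 RPKM in GFP- replicates 2 and 5, with Irf7 above Irf4 in both. In GFP+ replicates 1 and 4 Irf4 was at 21.1 and 18.9 RPKM and Irf7 at 12.7 and 13.8 RPKM, with Irf4 above Irf7 in both. That order rests on the length used for Irf4, which is 4683 bases in the poly(A) table and 3000 in the single-cell protocol table, where 30.9% of genes have exactly that length. With the longer one, an alternative chosen after seeing the data, Irf4 was at 13.5 and 12.1 RPKM, above Irf7 in GFP+ replicate 1 and below it in replicate 4. Irf4 stayed below Irf7 in the GFP- libraries, at 6.57 and 3.76 RPKM. Irf5 was the lowest of the 6, at 1.74 to 7.34 RPKM. As a share of the summed RPKM of the 6 tested genes, Irf4 made up 5.27%, 2.89% and 2.96% in GFP- replicates 20, 2 and 5 and 9.59%, 8.47% and 7.61% in GFP+ replicates 19, 1 and 4. With the poly(A) table's lengths for all 6 genes, the single-cell protocol shares of Irf4 were 1.98% and 2.03% in GFP- and 5.91% and 5.30% in GFP+. In these shares Irf1 is longer too, at 3360 bases instead of 3000. Because the lengths differ, the RPKM of Irf4 and Irf1 cannot be compared across protocols.

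The genes whose pattern was most like each factor were named by the smallest root mean square difference of protocol-centred log2 CPM over the 6 libraries, among 5942 genes with a mean of at least 10 CPM. For Irf4 these were Atg7, an autophagy enzyme (0.0605), Trp53i11 (0.0617) and Chaf1b, a histone chaperone subunit (0.0734). For Irf5 they were Alcam, an adhesion molecule (0.0724), Serinc3 (0.0804) and Mapre2, a microtubule end-binding protein (0.0914). Irf7 was nearest to Ilvbl, Dcaf8 and Irgm2, an interferon-inducible GTPase. For Irf9 they were Zmynd8, Rcl1 and Chchd3, for Irf1 Coq5, Nme7 and Arfip2, and for Irf3 Vrk3, Rbm10 and Casc3.

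The genes around the interferon regulatory factors were counted in 7 lists by role, to be read beside the 9.81% of all tested genes that were called higher and the 3.68% called lower. Among DNA partners of IRF4 and IRF8, 3 of 8 tested genes of 11 listed rose and none fell, with a median log2 fold change of 0.69. Batf, the partner of IRF4 in T cells, was at 57.9, 60.8 and 126 CPM in the GFP- libraries, against 117, 231 and 286 CPM across the GFP+ libraries. The poly(A) GFP+ library lay below GFP- replicate 5, and within each protocol GFP+ was higher. Its log2 fold change was 1.32 ± 0.32 (edgeR adjusted p = 0.0266). Ikzf3, the lymphoid factor Aiolos, rose by 1.97 ± 0.37 (0.00813) on the same scale and Spi1, the myeloid factor PU.1, by 3.39 ± 0.31 (0.000253). Spi1 was at 0.507 to 1.70 CPM in GFP- and at 8.26 to 13.8 CPM in GFP+ libraries, beside the macrophage markers given above. Ikzf1, the factor Ikaros, had a log2 fold change of -0.90 and an edgeR adjusted p of 0.0533. It was called lower in 5 of 10 other settings, among them DESeq2 (adjusted p = 0.00116) and limma-voom (0.0481), so the absence of a fall in this list depends on the setting. Junb and Jund had no single-cell protocol counts and poly(A) log2 ratios of 0.84 and 0.39.

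Upstream of Irf4 in T cell receptor signalling, 1 of 13 tested genes of 16 listed rose and 1 fell, with a median of -0.19, a share of calls near the 13.5% over all tested genes. Malt1, the protease of the NF-kB activating complex, rose by 0.93 ± 0.22 on the log2 scale (edgeR adjusted p = 0.0214). Prkcq, protein kinase C theta, was lower in GFP+, with a log2 fold change of -1.30 ± 0.32 (0.0279). Nfatc2, a calcium-dependent factor, did not pass (0.80, adjusted p = 0.0574). It was called higher in 3 of 10 other settings, among them DESeq2 (adjusted p = 0.0172) and limma-voom (0.0415).

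Among sensors, adaptors and kinases upstream of IRF3, IRF5 and IRF7, 3 of 18 tested genes of 23 listed rose and 1 fell, with a median of -0.16. Unc93b1, which carries nucleic acid-sensing Toll-like receptors to endosomes, rose by 1.61 ± 0.23 on the log2 scale (edgeR adjusted p = 0.00222). Tlr4, the receptor of lipopolysaccharide, rose by 2.54 ± 0.38 (0.00274), from 0.380 to 0.725 CPM in GFP- to 2.56 to 3.70 CPM in GFP+ libraries. Tlr8 was called higher (adjusted p = 0.000712), at 0.0217, 0 and 0 CPM in the GFP- libraries, against 1.44, 0.982 and 1.31 CPM across the GFP+ libraries. Traf6, a ubiquitin ligase of the pathway, was lower, with a log2 fold change of -1.04 ± 0.24 (0.0196). The receptors Tlr4 and Tlr8 are also expressed in macrophages, whose markers moved the same way, and the part of such cells was not tested.

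Around IRF1 and IRF9, 2 of 9 tested genes of 10 listed among interferon receptors, JAK and STAT fell and none rose, with a median of -0.33. Usp18, an interferon-induced brake on the type I interferon receptor, was at 21.8, 40.6 and 63.6 CPM in the GFP- libraries, against 5.59, 9.57 and 12.8 CPM across the GFP+ libraries. Each GFP+ library was below each GFP- library, with a log2 fold change of -2.13 ± 0.26 (edgeR adjusted p = 0.00102). Ifngr2, a chain of the interferon gamma receptor, was lower too (-1.01 ± 0.25, 0.0325). Ifnar1 (-0.47, adjusted p = 0.182) and Socs1 (-0.51, 0.333) did not pass the test, nor did Stat2 (-0.26), a partner of IRF9.

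Among genes with ISRE elements that type I interferon induces, 2 of 24 tested of 27 listed rose and 3 fell, with a median of -0.16. Ifitm3, a membrane protein that blocks virus entry, rose by 1.88 ± 0.41 on the log2 scale (edgeR adjusted p = 0.0164) and Oas1a, an oligoadenylate synthetase, by 1.30 ± 0.32 (0.0267). The 3 that were lower were Oasl2 (-1.06 ± 0.27, 0.0348), Ifit2 (-1.04 ± 0.27, 0.0396) and Ifit1 (-0.84 ± 0.22, 0.0367). Of the targets of interferon gamma and IRF1, 2 of 17 tested of 23 listed rose and none fell, with a median of 0.04. These were the chemokines Cxcl9 (3.08 ± 0.56, 0.00720) and Cxcl10 (1.17 ± 0.26, 0.0184). Cxcl9 was low, at 0.0869, 0.217 and 0.380 CPM in the GFP- libraries, against 0.509, 1.72 and 4.28 CPM across the GFP+ libraries. Ciita, the master factor of MHC class II genes, did not pass (1.32, adjusted p = 0.0763), nor did Iigp1, an immunity-related GTPase (-0.70, 0.147). Ciita was called higher in 3 of 10 other settings, among them DESeq2 (adjusted p = 0.0351). The 6 interferon gamma and IRF1 targets without single-cell protocol counts were not tested. Their poly(A) log2 ratios were all below 0, from -1.16 to -0.02.

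**Figure D4:**
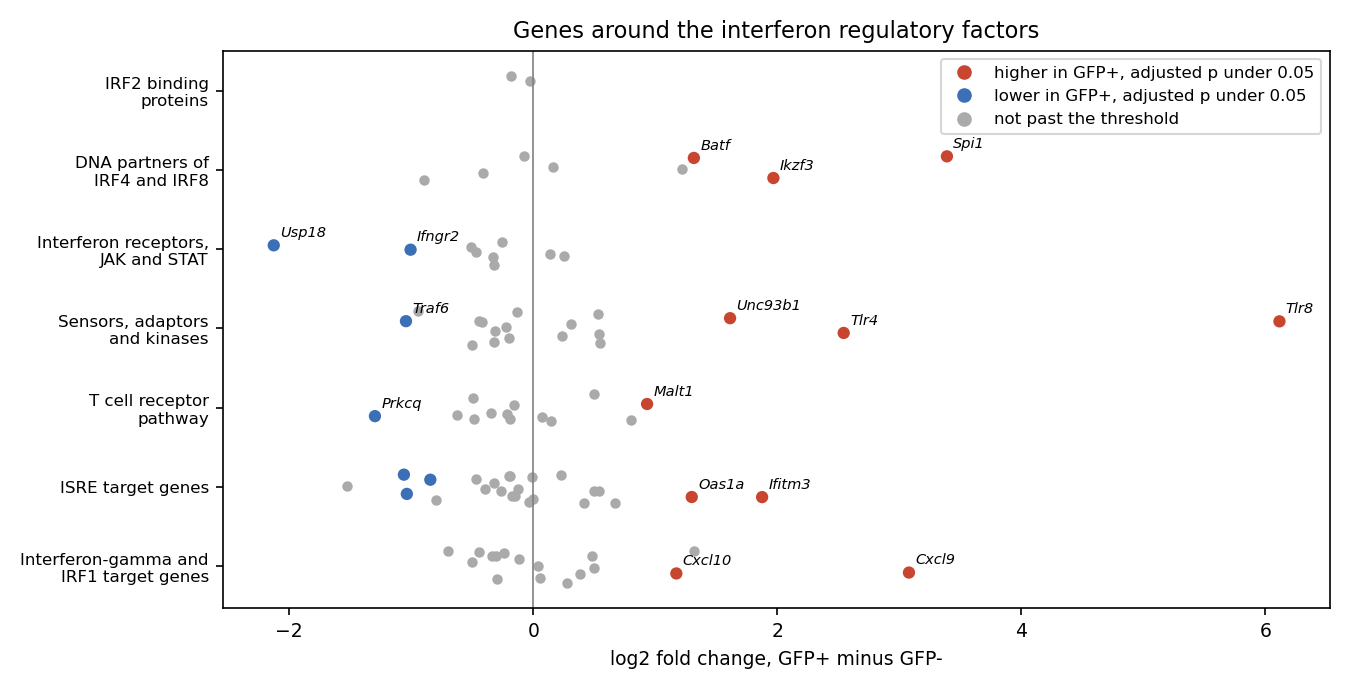
Log2 fold change of GFP+ minus GFP- for every tested gene of the 7 lists, 1 point a gene, red where higher and blue where lower at an edgeR adjusted p under 0.05 and grey otherwise. Calls lie on both sides of 0 in the sensor, T cell receptor and ISRE lists, and the point of Tlr8 depends on the prior count, since GFP- replicates 2 and 5 had no count.

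Of the 3 IRF2 binding proteins, which act as corepressors, Irf2bp1 (-0.18, edgeR adjusted p = 0.768) and Irf2bpl (-0.02, 0.970) did not pass the test, and Irf2bp2 had no single-cell protocol counts.

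Of the 18 genes called in these lists, 7 kept their call without any 1 of the 6 libraries, namely Spi1, Ikzf3, Usp18, Unc93b1, Tlr4, Tlr8 and Cxcl9. Batf, Traf6, Oas1a and Cxcl10 lost it without GFP- replicate 20 or GFP+ replicate 19, 1 or 4 (adjusted p between 0.0557 and 0.147). Malt1, Prkcq, Ifit1, Ifit2 and Oasl2 lost it when any 1 library other than GFP- replicate 5 was left out (0.0518 to 0.229). Ifngr2 lost it without GFP- replicate 20 or 2 or GFP+ replicate 19 or 1 (0.0572 to 0.246). Ifitm3 lost it without GFP- replicate 20 or GFP+ replicate 19 or 1 (0.0704 to 0.0811). The losses without GFP- replicate 20 and without GFP+ replicate 19 are not separate. In either case the comparison rests on the single-cell protocol libraries.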

How the data were processed

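The authors deposited raw counts per Entrez gene and gene lengths in bases, in a table for each protocol, and log2 RPKM per library. Per the submitters' processing notes, Subread, featureCounts, edgeR and build mm9 were used, with versions not given in the sources used here. The tests ran in R 4.3.3 with edgeR 4.0.16, beside limma 3.58.1 for alternatives: filterByExpr by population, TMM scaling, and a quasi-likelihood F-test with the protocol as covariate and 3 residual degrees of freedom, at an adjusted p of 0.05. SE were derived from the F statistic. The deposited log2 RPKM served as an alternative, as did DESeq2 1.42.0. Gene lengths as deposited entered only the RPKM. Symbols are those of the deposited tables, and chromosomes and promoters came from RefSeq on GRCm38, while the counts rest on mm9. No pair of libraries matched within sampling noise (chi-square per degree of freedom at least 88.9). Totals ran from 15224051 to 28354321 counts. Some genes of the lists are not reported here, and list counts leave them out. The genes, lists and markers were chosen with earlier results of these data known. Named were all 8 factors, up to 4 genes per list with the smallest p, genes that complete a count, the 3 most similar genes per factor, Prdm1, and up to 4 markers per cell type. Outside this rule Junb, Jund, Stat2, Tnpo3 and more than 4 markers of conventional dendritic cells were named.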

Additional observations from a re-analysis of the deposited data

How the results depend on the processing

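None of the 6 tested interferon regulatory factors changed direction in 10 other settings or without any 1 of the 6 libraries. Irf1, Irf3, Irf7 and Irf9 passed the threshold in none of these. Irf4 and Irf5 passed it in 8 of the 10 other settings. Without the protocol covariate their log2 fold changes were 1.04 (adjusted p = 0.445) and 1.27 (0.923), and in the single-cell protocol libraries alone 1.20 and 1.30. Without 1 library they ranged from 0.92 to 1.21 for Irf4 and from 1.23 to 1.32 for Irf5. Over all genes 1419 were called, against 1915 with DESeq2, 2500 without a filter on low counts, 139 without the covariate, 711 in the single-cell protocol libraries alone and 721 to 2156 without 1 library. The share of calls that were higher was 72.7%, against 62.7% with DESeq2, 62.8% with the authors' log2 RPKM and 82.7% without the covariate.

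Calls per list without the covariate were 0, except 1 for the sensors. In the single-cell protocol libraries alone they were 0 for the T cell receptor and ISRE lists and 1 for the receptor and interferon gamma lists. With library totals in place of TMM, a setting chosen after seeing the data, they were 1 for the receptor and T cell receptor lists and 2 for the ISRE list. Without a filter 5 DNA partners were called. Without 1 library the counts ran from 2 to 5 for the DNA partners, 1 to 2 for the receptors, 3 to 5 for the sensors, 0 to 2 for the T cell receptor list, 0 to 5 for the ISRE list and 1 to 4 for the interferon gamma list. Irf2bpl turned to 0.11 without the covariate and with library totals and to 0.011 with the authors' log2 RPKM. Without 1 library it ranged from -0.17 to 0.17 (0.13 without GFP- replicate 5, 0.17 without GFP+ replicate 1), and Irf2bp1 from -0.43 to 0.11 (0.11 and 0.077 without the same libraries). The poly(A) log2 ratio of Irf2 changed sign, from 0.003 in CPM of all counts to -0.090 in the authors' log2 RPKM. The latter lies outside its counting interval of -0.05 to 0.06. The causes were not tested.

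No paired analysis was made, because the populations share no replicate number and the labels state no pairs. Whether adjacent replicate numbers mark a shared animal or batch is not stated. With 3 or 2 residual degrees of freedom the test has little power for small differences. The macrophage markers in GFP+ libraries move with every GFP+ value, so a difference within Treg cannot be told apart from one in cell makeup here.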
